A study of Mus musculus with 16 samples.

Results

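Voltage-gated calcium channel subunit genes were followed across the cochlear input and ribosome-bound RNA of control and damaged neonatal mice. The 10 genes were chosen by symbol and comprise the pore-forming genes Cacna1a, Cacna1b, Cacna1c, Cacna1d, Cacna1g and Cacna1h, the α2δ genes Cacna2d1 and Cacna2d2, and the β genes Cacnb2 and Cacnb3. They are 10 of 47729 genes with values, and 10 of the 10 passed the filter on low values, as did 16994 of all genes. Control mice were GLAST CreERT/+; Rpl22 HA/+ and DTR mice carried Lgr5 DTR/+ in addition, so that diphtheria toxin (DT) ablates Lgr5+ supporting cells (SCs) in DTR mice alone. By the study's methods, DT and tamoxifen were given to both genotypes at P1. The sample labels instead name a DTR treatment for DTR mice and none for control mice. All cochleae were taken at P4. After tamoxifen, Cre driven from the GLAST (Slc1a3) locus puts an HA tag on the ribosomal protein Rpl22 in cells of the greater epithelial ridge (GER) and inner phalangeal region, and an anti-HA antibody pulls down the RNA on those ribosomes (IP). Input is RNA of the same homogenate before the IP, from several pooled cochleae from which Reissner's membrane, the lateral wall and the spiral ganglia had been dissected away. Input and IP of each genotype had 4 libraries. The Lgr5 DTR allele and the damage came together, so the effects of the allele itself and of the damage cannot be told apart.

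Voltage-gated calcium channels open on depolarisation and let calcium into the cell. The α1 subunit forms the pore and sets the class (L, P/Q, N, R or T type). The β subunits bind inside and the α2δ subunits outside the membrane, and both raise the number of channels at the surface. In the cochlea the L-type pore encoded by Cacna1d carries the calcium current that drives transmitter release from hair cells, and supporting cells of the neonatal cochlea show spontaneous calcium waves that are known to involve release from internal stores.

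Counted reads per library ranged from 28089836 to 41966310, and 3 reads corresponded to 0.0715 to 0.107 CPM (reads on a gene per 1000000 counted reads of its library), a limit that covers counting error only. Lgr5 was lower in DTR libraries, by a log2 fold change (LFC) of -1.93 in IP and -2.00 in input (adjusted p = 3.5e-08 and 2.2e-08, limma). The study describes the DTR allele as a knock-in at Lgr5 itself, so for this gene the allele and the cell loss cannot be told apart. Slc1a3 itself was not enriched by the IP, at 218 to 264 CPM in control IP and 274 to 303 CPM in control input, and the summed markers of hair cells (12 genes), Schwann cells (7 genes) and macrophages (6 genes) were lower in IP than in input yet above 0. The summed level of 8 neuronal markers was higher in replicates 1 and 2 than in replicates 3 and 4 of each group (391 to 1031 CPM in control input and 200 to 810 CPM in DTR input, with 248 to 499 CPM in IP of control and 126 to 421 CPM in IP of DTR cochleae). In these bulk samples fewer cells of a type and less RNA per cell cannot be told apart.

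Values per gene are CPM as deposited. For the tests, CPM were quantile normalised, log2 transformed after adding 0.5, and compared with limma over the 16 libraries with Benjamini-Hochberg adjustment over 16994 genes. A gene passed at an adjusted p under 0.05, and met the stricter criteria when its absolute LFC also reached 1 and its separation exceeded 1.5. Separation divides the lowest normalised value of the group with the higher mean by the highest of the other group. LFCs understate the change of genes with few reads because of the added 0.5.

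After damage the largest change among the 10 genes was that of Cacna1c, the L-type pore gene best known from heart and smooth muscle, which rose in DTR cochleae in both input and IP. The study had already reported Cacna1c as changed after damage and found the change again by nCounter, another assay of RNA. That assay used the sequenced replicates and an independent further one. The T-type pore genes Cacna1h and Cacna1g rose in DTR IP, while Cacna2d2 fell there. Between DTR IP and control IP, 4 of the 10 genes passed (3 higher, 1 lower), where 15.7% of all tested genes passed (8.44% higher, 7.30% lower), and between DTR input and control input 1 of the 10 passed against 12.4% of all. Cacna1c alone met the stricter criteria, in IP (2.47% of all genes) and in input (2.34%). Between IP and input, 3 of the 10 genes passed in control cochleae against 39.9% of all genes, and 2 of the 10 in DTR cochleae against 39.2%.

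**Figure D1:**
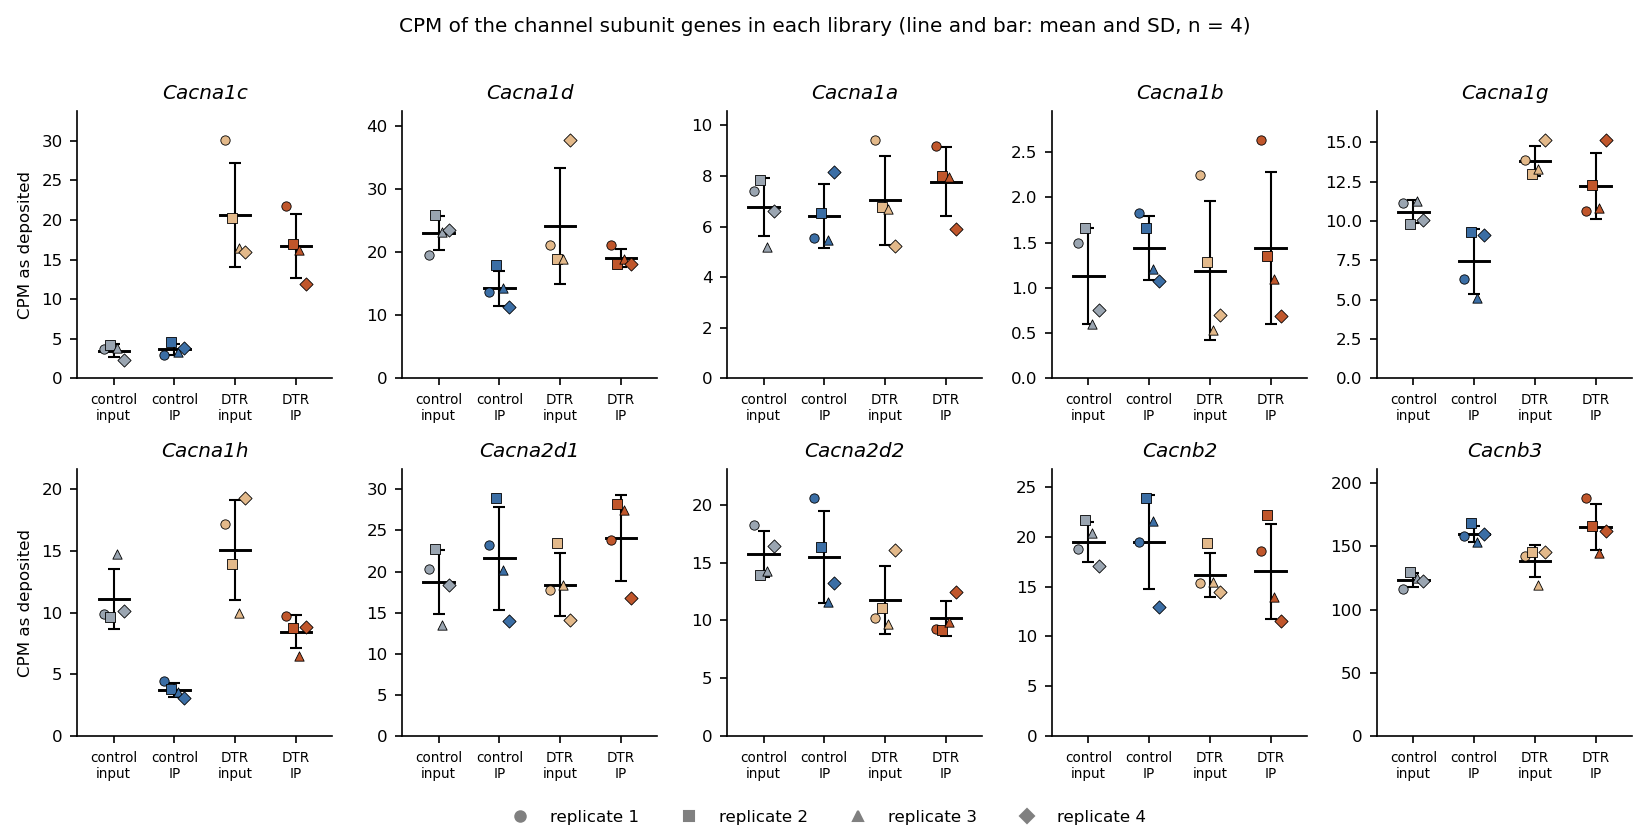
CPM of each of the 10 subunit genes in each of the 16 libraries, with a vertical axis from 0 for each gene; lines and bars are the mean and SD of 4 libraries, and the marker shape gives the replicate. Cacna1c sits at 2.28 to 4.57 CPM in the 8 control libraries and at 12.0 to 30.1 CPM in the 8 DTR libraries.

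Cacna1c (ENSMUSG00000051331) lies on the minus strand of chromosome 6, at 118587240 to 119196418 (GRCm38), with 21191 bases of exon. Its CPM were 3.74, 4.22, 3.80 and 2.28 in control input (replicates 1 to 4) and 2.93, 4.57, 3.32 and 3.86 in control IP. They were 30.1, 20.2, 16.4 and 15.9 in DTR input and 21.8, 16.9, 16.2 and 12.0 in DTR IP. Every DTR library was thus above every control library, by a wide gap, and input and IP overlapped within each genotype. The control values rested on 88 to 157 reads and the DTR values on 364 to 1019 reads. The LFC was 2.38 ± 0.22 (SE) in input (adjusted p = 2.9e-07, limma, separation 3.93) and 1.89 ± 0.22 in IP (adjusted p = 5.2e-06, separation 2.54). The change in IP minus that in input was -0.49, which did not pass (95% confidence interval -1.13 to 0.16, adjusted p = 1, limma). IP and input did not differ past the threshold in control (LFC 0.18 ± 0.22, adjusted p = 0.56, limma) or DTR cochleae (-0.31 ± 0.22, adjusted p = 0.27).

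RefSeq lists 3 starts of Cacna1c on GRCm38.p6, the outermost at the edge of the gene and the others inside it. The 250 bases before each are shown because Cacna1c had the largest change among the 10 genes, together with the window of Cacna2d2, the gene that fell. They were searched on both strands for the motifs of EGR factors (GCGNGGGCG), AP-1 (TGANTCA) and CREB (TGACGTCA) and for the GC box (GGGCGG), and capitals mark the matches. The windows are chr6:119196410-119196659, chr6:119108496-119108745 and chr6:118757975-118758224 (minus strand) for Cacna1c and chr9:107399630-107399879 (plus strand) for Cacna2d2.
Cacna1c, outermost start: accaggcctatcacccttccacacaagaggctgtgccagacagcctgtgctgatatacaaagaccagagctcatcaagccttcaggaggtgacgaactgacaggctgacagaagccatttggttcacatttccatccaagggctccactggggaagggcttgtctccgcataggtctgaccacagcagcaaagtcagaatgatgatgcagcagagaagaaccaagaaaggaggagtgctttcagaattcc
Cacna1c, middle start: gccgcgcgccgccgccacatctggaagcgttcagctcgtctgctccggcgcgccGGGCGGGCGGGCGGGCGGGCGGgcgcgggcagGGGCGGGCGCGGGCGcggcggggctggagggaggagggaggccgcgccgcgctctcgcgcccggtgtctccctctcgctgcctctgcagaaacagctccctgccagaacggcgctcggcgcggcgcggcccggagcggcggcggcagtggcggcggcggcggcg
Cacna1c, innermost start: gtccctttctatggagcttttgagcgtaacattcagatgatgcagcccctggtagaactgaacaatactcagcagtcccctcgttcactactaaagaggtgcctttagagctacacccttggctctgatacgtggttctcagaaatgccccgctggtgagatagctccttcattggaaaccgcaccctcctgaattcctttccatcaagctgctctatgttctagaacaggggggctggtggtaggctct
Cacna2d2: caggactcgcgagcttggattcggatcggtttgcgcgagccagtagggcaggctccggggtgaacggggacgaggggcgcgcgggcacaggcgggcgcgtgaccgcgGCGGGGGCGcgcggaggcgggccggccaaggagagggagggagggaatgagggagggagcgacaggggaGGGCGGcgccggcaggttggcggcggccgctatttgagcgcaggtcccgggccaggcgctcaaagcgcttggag
The middle window of Cacna1c was 82.8% G and C, with 48 CpG dinucleotides, and held 6 GC box matches and 1 EGR motif. Most of these GC box matches overlap each other within a GGGC repeat and are not separate sites. The outer and inner windows were 51.6% and 50.4% G and C and held none of the motifs searched. The Cacna2d2 window was 74.4% G and C and held 1 EGR motif and 1 GC box. The windows of Cacna1b and Cacna2d1, which did not pass after damage, held 2 EGR motifs each, and each of the 7 genes with a window had a GC box in at least 1 of them. Of 32851 RefSeq windows of the same length, 4.70% held the EGR motif, 6.75% AP-1, 1.55% the CREB motif and 32.7% a GC box. The values are per gene, so the reads could not be assigned to a start, and a match is a description of the letters and not of binding. By symbol, 7 of the 10 genes matched a RefSeq window, and Cacna1a, Cacna1g and Cacna1h did not.

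Cacna1d (ENSMUSG00000015968, chromosome 14, 30039939 to 30491455), the L-type pore gene of hair cells, behaved differently. Its CPM were 19.5, 25.9, 23.3 and 23.6 in control input and 13.6, 18.0, 14.3 and 11.2 in control IP. They were 21.2, 18.9, 18.9 and 37.8 in DTR input and 21.1, 18.1, 18.9 and 18.1 in DTR IP. All 4 control IP libraries were below all 4 control input libraries, and 1 DTR input library stood far above the other 3. Cacna1d fell from control input to control IP (LFC -0.67 ± 0.17, adjusted p = 0.0048, limma). In DTR cochleae the same comparison gave -0.31 ± 0.17 (adjusted p = 0.17, limma), and the difference between the 2 values was not past the threshold (0.35, 95% confidence interval -0.16 to 0.87, adjusted p = 1). DTR IP was above control IP in every library by CPM, but by a small margin (18.1 against 18.0 at the nearest), and did not pass (LFC 0.35 ± 0.17, adjusted p = 0.20, limma). In input the LFC after damage was -0.0048 ± 0.17.

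Hair cell markers moved in the same direction as Cacna1d between input and IP. Their summed CPM (12 genes) was 726 to 897 in input and 233 to 316 in IP of control cochleae, and 682 to 832 in input and 320 to 365 in IP of DTR cochleae, and 11 of the 12 fell and 1 rose from control input to control IP. The part of hair cell RNA in the level of Cacna1d was not tested. Cacna1d also shares exon bases with Chdh on the opposite strand, and the strand setting of the counting is not given in the sources used here. Chdh had 4.71 to 9.82 CPM, below Cacna1d in every group.

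The T-type genes open at low voltages and are expressed in many excitable and developing cells. Cacna1h (ENSMUSG00000024112, chromosome 17, 25374285 to 25433783) was measured at 9.91, 9.66, 14.7 and 10.1 CPM in control input and at 4.49, 3.84, 3.62 and 3.11 CPM in control IP. In DTR input it was at 17.1, 13.9, 9.96 and 19.3 CPM and in DTR IP at 9.70, 8.76, 6.53 and 8.85 CPM. IP was below input in every library of both genotypes, and DTR IP was above control IP without overlap. The drop from input to IP was -1.32 ± 0.19 on the log2 scale in control cochleae (adjusted p = 2.7e-05, limma, separation 1.98), where Cacna1h was the only one of the 10 genes to meet the stricter criteria (7.68% of all genes). In DTR cochleae it was -0.77 ± 0.19 (adjusted p = 0.0042, limma), where none of the 10 genes met them (5.77% of all genes). Cacna1h rose from control IP to DTR IP by 0.95 ± 0.19 (adjusted p = 0.0021, limma, fold 1.93). It fell short of the stricter criteria in both LFC and separation (1.43). In input the LFC was 0.39 ± 0.19 (adjusted p = 0.24), and the difference between the changes in IP and input was 0.56 (95% confidence interval -0.019 to 1.13, adjusted p = 0.98, limma).

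Cacna1g (ENSMUSG00000020866, chromosome 11, 94408391 to 94474198) had 11.1, 9.83, 11.3 and 10.1 CPM in control input and 6.31, 9.28, 5.08 and 9.09 CPM in control IP. It had 13.9, 13.0, 13.3 and 15.1 CPM in DTR input and 10.6, 12.3, 10.8 and 15.2 CPM in DTR IP. By CPM the DTR libraries lay above the control libraries without overlap in both input and IP, although the IP groups overlapped after quantile normalisation (separation 0.954). Cacna1g rose in DTR IP by an LFC of 0.62 ± 0.18 (adjusted p = 0.024, limma), and in input the LFC was 0.36 ± 0.18 (adjusted p = 0.25). The call in IP was lost without control IP replicate 1 (adjusted p = 0.082), control IP replicate 3 (0.097), DTR IP replicate 2 (0.050) or DTR IP replicate 4 (0.082), and in limma over the groups compared alone (0.096). It was also lost with replicates 1 and 2 alone (LFC 0.53, adjusted p = 0.16, limma) and with replicates 3 and 4 alone (LFC 0.70, adjusted p = 0.21). Control IP was lower than control input by -0.45 ± 0.18, which missed the threshold (adjusted p = 0.053, limma) and passed under 8 of 30 alternatives. It passed when the pool entered as a block (adjusted p = 0.035), without quantile normalisation (0.026), with libraries centred on their medians (0.028) and at a minimum of 2 CPM (0.045).

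Markers of several other cell types rose in DTR IP together with these pore genes. The 12 hair cell markers summed to 233 to 316 CPM in control IP and 320 to 365 CPM in DTR IP, and 3 rose and 1 fell. The 5 endothelial markers summed to 28.8 to 45.2 CPM and 43.5 to 53.5 CPM, with overlap, and 1 rose. The summed level of 6 mesenchymal markers was 2243 to 3371 CPM in control IP and 3898 to 4710 CPM in DTR IP, and 4 of the 6 rose. That of 7 smooth muscle and pericyte markers was 111 to 153 CPM and 156 to 216 CPM. Of these 7, 5 were tested and 2 rose (Tagln and Acta2), while the contractile genes Myh11 and Cnn1 were near 0 throughout, at no more than 1.10 and 0.265 CPM in any library. Acta2 was low too, at 0.329 to 0.735 CPM in control IP (11 to 25 reads) and 0.861 to 2.07 CPM in DTR IP (26 to 63 reads). The 6 macrophage markers summed to 9.09 to 17.4 CPM and 21.0 to 34.1 CPM. In input they summed to 61.2 to 69.3 CPM in control and 79.8 to 127.5 CPM in DTR cochleae, without overlap, and 3 of the 6 were higher. In input the mesenchymal and the smooth muscle and pericyte ranges of control and DTR overlapped (5091 to 5814 against 4739 to 6139 CPM and 338 to 387 against 321 to 432 CPM). The 11 markers of supporting cells and the GER summed to 22280 to 29370 CPM in control IP and 15500 to 19330 CPM in DTR IP, and 7 of the 11 fell. Markers of Schwann cells and glia (7 genes) summed to 792 to 1242 CPM in control IP and 548 to 778 CPM in DTR IP, and 2 fell. In input their sum was 2693 to 4730 CPM in control and 1318 to 2093 CPM in DTR cochleae, without overlap, and 6 of the 7 fell. The part of these cell types in the changes of the pore genes was not tested.

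**Figure D2:**
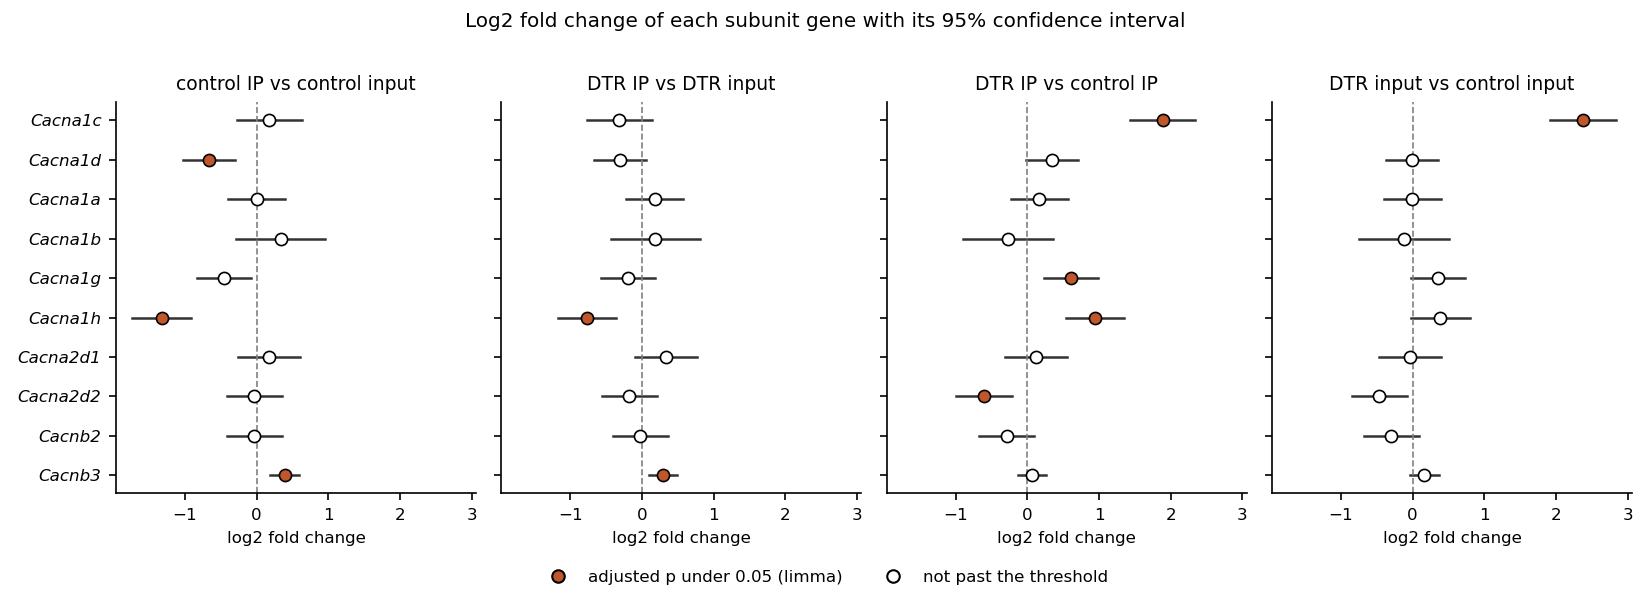
LFC of each gene in the 4 comparisons with its 95% confidence interval from limma (4 libraries against 4); filled points passed the adjusted p. Cacna1c stands at 1.89 in DTR IP against control IP and at 2.38 in DTR input against control input, and the highest upper bound of the other genes is 1.35, that of Cacna1h in DTR IP against control IP.

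The P/Q-type and N-type pore genes, which serve transmitter release at most central synapses, did not pass in any comparison. Cacna1a (ENSMUSG00000034656, chromosome 8, 84388440 to 84640246) had 7.41, 7.83, 5.20 and 6.62 CPM in control input and 5.53, 6.55, 5.47 and 8.17 CPM in control IP. It had 9.42, 6.78, 6.69 and 5.24 CPM in DTR input and 9.19, 8.01, 7.95 and 5.92 CPM in DTR IP. The 4 groups overlapped, with LFCs between -0.0038 and 0.18 in the 4 comparisons and a 95% confidence interval of -0.23 to 0.57 for DTR IP against control IP. Cacna1b (ENSMUSG00000004113, chromosome 2, 24603887 to 24763152) was the lowest of the 10 genes, with 21 to 82 reads per library. Its CPM were 1.5, 1.66, 0.605 and 0.750 in control input and 1.82, 1.66, 1.21 and 1.08 in control IP. They were 2.25, 1.28, 0.536 and 0.700 in DTR input and 2.64, 1.35, 1.09 and 0.691 in DTR IP. Replicates 1 and 2 were above replicates 3 and 4 in each of the 4 groups, as they were for the neuronal markers, and the interval for DTR IP against control IP was -0.89 to 0.35. After subtraction of the group means, the correlation of Cacna1b with the neuronal list over 16 libraries was 0.891, a description over libraries that share pools and depth. With the mesenchymal list it was 0.755.

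The same correlation with the neuronal list was 0.669 for Cacna1c and 0.643 for Cacna2d1, and between -0.406 and 0.494 for the other 7 genes. With the mesenchymal list it was 0.563 for Cacna1c and 0.544 for Cacna2d1. Cacna1g reached 0.798 with the smooth muscle and pericyte list, and Cacnb2 0.716 with that of supporting cells and the GER. Cacna2d2 reached 0.69 with the endothelial list. The neuronal list was thus not the only one with high values. The neuronal sum of 4 of 4 DTR replicates was below that of the control replicate of the same number, in input and in IP. The part of neuronal RNA in the levels of these genes was not tested. With replicates 1 and 2 alone, the LFC of Cacna1c was 2.17 in IP and 2.52 in input (adjusted p = 0.00047 and 0.00017, limma), and with replicates 3 and 4 alone it was 1.61 and 2.23 (adjusted p = 0.0081 and 0.0016). The rise of Cacna1h in DTR IP was 1.02 with replicates 1 and 2 alone (adjusted p = 0.0098, limma) and 0.88 with replicates 3 and 4 alone (adjusted p = 0.15), where the number of libraries was smaller.

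**Figure D3:**
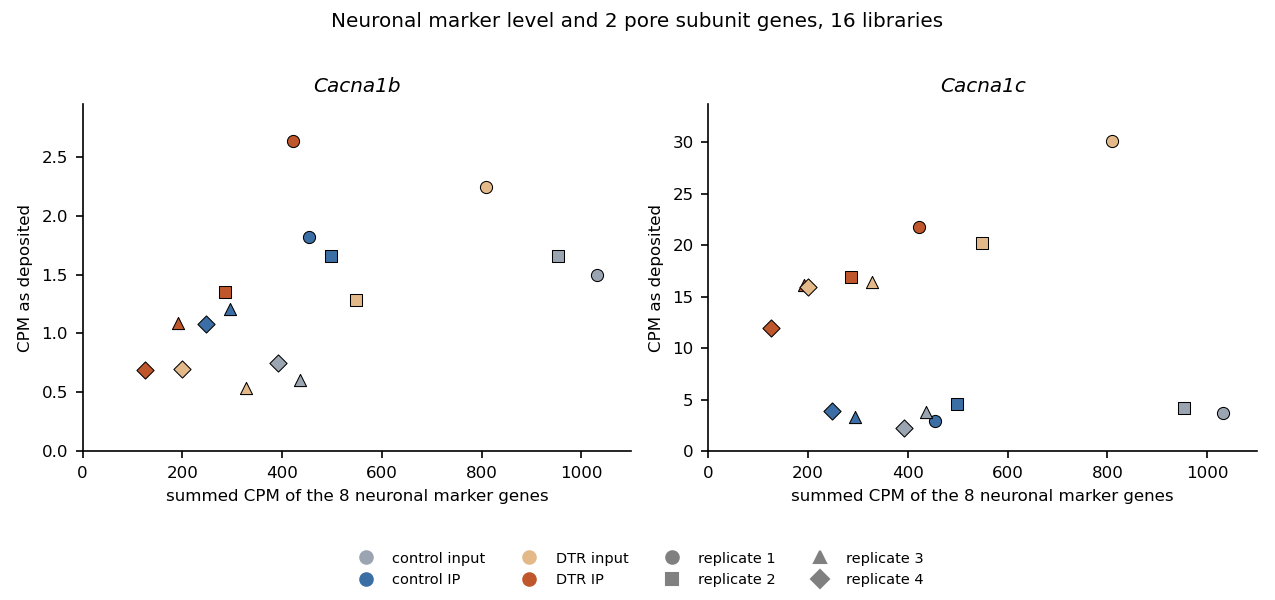
CPM of Cacna1b and Cacna1c (vertical axes, from 0) against the summed CPM of 8 neuronal markers (horizontal axis) in 16 libraries, with colour for the group and shape for the replicate. Cacna1c of the 8 DTR libraries lies at 12.0 to 30.1 CPM over a neuronal level of 126 to 810 CPM, whereas the 8 control libraries stay at or below 4.57 CPM over 248 to 1031 CPM.

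The α2δ genes encode the extracellular subunits that bring pores to the membrane and bind gabapentin. Cacna2d1 (ENSMUSG00000040118, chromosome 5, 15934691 to 16374511) had 20.3, 22.7, 13.6 and 18.3 CPM in control input and 23.3, 29.0, 20.2 and 14.0 CPM in control IP. It had 17.8, 23.5, 18.4 and 14.1 CPM in DTR input and 23.8, 28.3, 27.5 and 16.8 CPM in DTR IP. The groups overlapped and replicate 4 was low in both IP groups. DTR IP against DTR input gave an LFC of 0.33 ± 0.20 (adjusted p = 0.21, limma), which passed when the pool entered as a block (adjusted p = 0.043), since IP was above input in each of the 4 DTR pools.

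Cacna2d2 (ENSMUSG00000010066, chromosome 9, 107399612 to 107529343) had 18.2, 13.9, 14.3 and 16.5 CPM in control input and 20.6, 16.4, 11.6 and 13.2 CPM in control IP. It had 10.2, 11.1, 9.70 and 16.1 CPM in DTR input and 9.29, 9.15, 9.91 and 12.4 CPM in DTR IP. DTR values were mostly below control values, with replicate 4 the highest DTR library in input and in IP, and the groups overlapped in both. Cacna2d2 fell in DTR IP by 0.61 on the log2 scale (SE 0.18, adjusted p = 0.031, limma), and in input the LFC was -0.46 ± 0.18 (adjusted p = 0.13). The fall in input passed under 2 of 30 alternatives, among them the fit without DTR input replicate 4 (LFC -0.62, adjusted p = 0.031, limma). The call in IP was a narrow one. It was lost without quantile normalisation (adjusted p = 0.053), without the filter on low values (0.055), over the groups compared alone (0.060), and without control IP replicate 1 (0.11), control IP replicate 2 (0.059) or DTR IP replicates 1 (0.089), 2 (0.070) or 3 (0.058). With replicates 3 and 4 alone the LFC was -0.26 (adjusted p = 0.63, limma).

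The β genes encode the cytoplasmic subunits that chaperone the pore and shift its gating. Cacnb2 (ENSMUSG00000057914, chromosome 2, 14603088 to 14987908), the β gene of cardiac and inner hair cell channels, had 18.8, 21.7, 20.4 and 17.1 CPM in control input and 19.4, 23.9, 21.6 and 12.9 CPM in control IP. It had 15.4, 19.4, 15.4 and 14.5 CPM in DTR input and 18.6, 22.2, 13.9 and 11.5 CPM in DTR IP. The groups overlapped, and replicate 4 was the lowest library in each of the 4. DTR IP against control IP gave an LFC of -0.29 ± 0.18 (adjusted p = 0.33, limma), which was -0.47 (adjusted p = 0.028) after correction for length and GC content and lower still in p with the replicate number as a block as well (0.014).

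Cacnb3 (ENSMUSG00000003352, chromosome 15, 98630840 to 98644529) was the most abundant of the 10 genes and the only one higher in IP than in input past the threshold. It had 116.4, 129.3, 124.8 and 122.6 CPM in control input and 158.1, 168.2, 153.2 and 159.8 CPM in control IP. It had 142.2, 145.4, 119.1 and 145.0 CPM in DTR input and 188.2, 165.7, 144.4 and 161.6 CPM in DTR IP. Control IP was above control input without overlap, while in DTR cochleae the ranges overlapped slightly by CPM. The LFC was 0.39 ± 0.095 in control (adjusted p = 0.0028, limma) and 0.29 ± 0.095 in DTR cochleae (adjusted p = 0.020). The call in DTR cochleae was lost with libraries centred on their medians (adjusted p = 0.061), over the groups compared alone (0.070), without DTR IP replicate 1 (0.076), without DTR input replicate 3 (0.075) or with replicates 3 and 4 alone (0.29). After damage the LFC was 0.064 ± 0.095 in IP (95% confidence interval -0.13 to 0.26) and 0.16 ± 0.095 in input (adjusted p = 0.71 and 0.33, limma).

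Per kb of exon, Cacnb3 stood apart, at 30.7 ± 1.34 CPM per kb in control input (SD, n = 4) against 1.98 ± 0.252 for Cacna2d2, the next in order. In control input Cacna1d (1.83), Cacna2d1 (1.51), Cacnb2 (1.47), Cacna1h (1.14) and Cacna1g (1.04 CPM per kb) followed, each overlapping its neighbour. Cacna1a was below them at 0.592 ± 0.101 CPM per kb without overlap. Cacna1c at 0.166 ± 0.0401 and Cacna1b at 0.114 ± 0.0532 CPM per kb closed the order and overlapped each other. In DTR input Cacna1c reached 0.975 ± 0.311 CPM per kb, above Cacna1a (0.616 ± 0.153) but overlapping it, and in DTR IP 0.788 ± 0.189 CPM per kb beside 0.680 ± 0.119 for Cacna1a, again with overlap. The ratio of Cacnb3 to the pores per kb depends on the gene model used for the length.

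The 6 pore genes summed to 4.88 ± 0.269 CPM per kb in input and 3.14 ± 0.395 in IP of control cochleae, and to 6.53 ± 1.17 in input and 5.20 ± 0.438 in IP of DTR cochleae (SD, n = 4). Every DTR IP library was above every control IP library in this sum. Of the sum, Cacna1c made up 3.38% ± 0.742 in control input and 15.0% ± 4.08 in DTR input, and 5.51% ± 0.571 in control IP and 15.1% ± 2.70 in DTR IP. The share of Cacna1d was 37.4% and 29.0% in control and DTR input and 36.2% and 29.1% in control and DTR IP. The 2 T-type genes together made up 44.6% of input and 35.6% of IP in control cochleae, and 44.6% of input and 40.1% of IP in DTR cochleae. The P/Q-type and N-type genes made up 14.6%, 22.7%, 11.5% and 15.8% in the same order. Shares of one sum depend on each other, and they are given as a description.

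**Figure D4:**
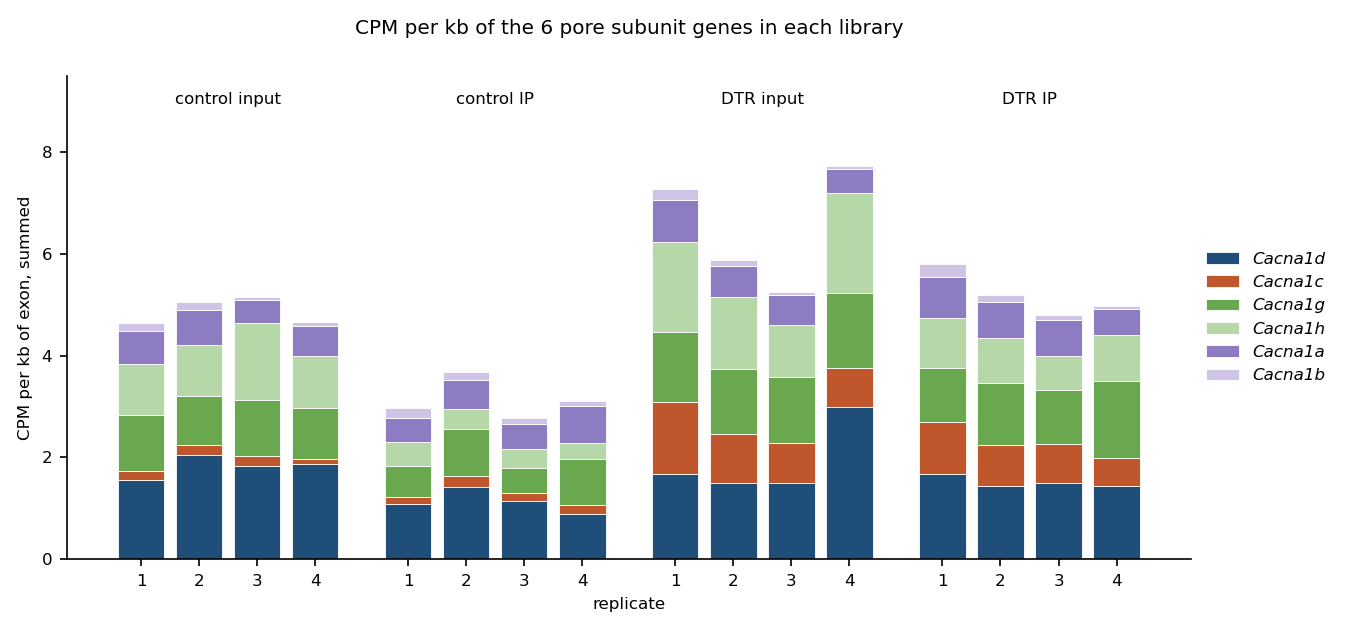
CPM per kb of exon of the 6 pore genes, stacked from 0 for each of the 16 libraries (horizontal axis, replicate within group). The bars do not include the R-type pore gene Cacna1e. The Cacna1c segment takes 2.31% to 5.85% of the control bars and 9.69% to 19.5% of the DTR bars, and DTR input replicate 4 stands out by its Cacna1d segment.

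No gene of the 10 passed in the difference between the change after damage in IP and that in input, where 0.0118% of all tested genes passed. At an unadjusted p under 0.05 there were 0 of the 10 by limma, 1 by edgeR and 1 by DESeq2, and 0 passed after adjustment by either count tool. The groups of 4 libraries did not overlap by CPM for 4 of the 10 genes in control IP against control input (38.7% of all genes), 1 in DTR IP against DTR input (32.8%), 4 in DTR IP against control IP (17.0%) and 2 in DTR input against control input (19.3%). Over the 10 genes the median LFC was -0.015, -0.099, 0.15 and -0.0043 in these 4 comparisons, beside -0.0012, -0.027, -0.0043 and -0.021 over all tested genes.

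Members varied together in part. Over 16 libraries, which share group differences, pools and depth, log2 values of Cacna1h correlated with those of Cacna1d at 0.795 and with those of Cacna1g at 0.726, and Cacna1c with Cacna2d2 at -0.805. Among all tested genes the profiles most like that of Cacna1c were Hist1h4h (Pearson's r = 0.986), Cnbd2 (0.984) and 2410004I01Rik (0.979), and those most like that of Cacna1h were Cad (0.968), Uhrf1 (0.963) and Wdr81 (0.957).

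Of the other 16 genes of the channel family, 8 were tested. Cacng4, a γ-family gene whose product is better known as a partner of AMPA receptors, rose from control input (37.3 to 47.1 CPM) to control IP (91.9 to 117.7 CPM) with an LFC of 1.28 ± 0.12 and from DTR input (45.5 to 51.5 CPM) to DTR IP (110.1 to 155.5 CPM) with an LFC of 1.34 ± 0.12 (adjusted p = 1.1e-07 and 8.9e-08, limma). The IP and input ranges of Cacng4 were far apart in both genotypes, and its LFC after damage in IP was 0.24 ± 0.12 (adjusted p = 0.18). Cacna1e, the R-type pore gene, rose from 11.5 to 19.9 CPM in control IP to 19.3 to 32.2 CPM in DTR IP (LFC 0.70 ± 0.18, adjusted p = 0.010, limma), with slight overlap. Cacna2d4, an α2δ gene known from photoreceptor synapses, fell from 0.392 to 1.62 CPM in control IP to 0.214 to 0.460 CPM in DTR IP (LFC -1.06 ± 0.26, adjusted p = 0.0085, limma) and in input (-0.84 ± 0.26, adjusted p = 0.041), on 6 to 65 reads per library. Cacna2d3 (3.02 to 20.9 CPM over all libraries), Cacnb1 (8.20 to 18.2 CPM), Cacnb4 (1.47 to 17.1 CPM), Cacng2 (0.425 to 3.46 CPM) and Cacng5 (2.10 to 15.3 CPM) passed in none of the 5 comparisons.

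Of 23 channel regulators and partners, 20 were tested. Between control IP and control input 3 were higher and 7 lower, and between DTR IP and DTR input 3 were higher and 8 lower. After damage 3 were higher and none lower in IP, and 2 were higher and none lower in input. Gem, an RGK-family GTPase that binds β subunits and reduces calcium currents, was the one that met the stricter criteria after damage. It was at 1.86 to 4.71 CPM in control IP and 9.40 to 14.2 CPM in DTR IP (LFC 1.53 ± 0.19, adjusted p = 1.1e-05, limma), and at 4.13 to 6.65 CPM in control input and 14.7 to 17.0 CPM in DTR input (LFC 1.503 ± 0.19, adjusted p = 1.4e-05). Gem thus rose in the same 2 comparisons as Cacna1c, which share no library but come from the same pools. The other RGK genes Rem1, Rem2 and Rrad did not pass after damage, with LFCs of 0.069, 0.026 and 0.24 in IP (adjusted p = 0.89, 0.94 and 0.57, limma). Their values were looked up after that of Gem was seen. Of 24 genes of store release, store-operated entry, pumps, exchangers and mitochondrial uptake, 21 were tested. Between control IP and control input 2 of these were higher and 11 lower, between DTR IP and DTR input 3 and 6, between DTR IP and control IP 2 and 1, and between DTR input and control input 0 and 2. None of them met the stricter criteria after damage. The median LFC after damage in IP was 0.064 for the regulators and -0.10 for the calcium handling genes, beside -0.0043 over all tested genes.

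Of the 10 genes, 9 are long. Their exonic lengths, 7947 to 21191 bases without Cacnb3 (4010 bases), placed them at or above the 84th percentile of tested genes, and Cacnb3 at percentile 50.2. The median LFC of the 3388 longest genes (7141 bases or more) was -0.14 for control IP against control input, -0.090 for DTR IP against DTR input, 0.078 for DTR IP against control IP and -0.0091 for DTR input against control input. With each library corrected for length and GC content, the LFC of Cacna1c was 1.68 in IP and 2.32 in input (adjusted p = 1.5e-05 and 3.3e-07, limma) and that of Cacna1h 0.86 in DTR IP against control IP (adjusted p = 0.0015). Apart from Cacna1d, the exons of 4 of the genes overlap a gene on the opposite strand, and these partners were listed at 0 (Tpsg1 for Cacna1h, Gm17141 for Cacna2d2) or reached at most 0.178 CPM (Gm16183 for Cacna1a) and 0.945 CPM (Gm13269, the highest of 3 for Cacnb2).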

How the data were processed

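RNA was sequenced from 16 libraries of P4 mouse cochlea (SMART-Seq v4). The authors aligned reads to GRCm38 with HISAT2, counted them with HTSeq and deposited CPM per gene, while the submitters' processing notes name TopHat. The annotation release and the strand setting are not given in the sources used here. The deposited CPM sum to 1000000 per library and 100% of values were whole multiples of the value of 1 read (tolerance 0.01), so whole reads were recovered for the count tools. On those reads edgeR called 2682 genes between DTR IP and control IP.

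A pseudocount of 0.5 was added to quantile-normalised CPM before taking log2. The 16994 genes that reached 0.5 CPM in each of the 4 libraries of some group were compared with limma 3.58.1 (R 4.3.3, trend, two-sided, Benjamini-Hochberg adjustment). Separation used a floor of 1.08 CPM, the 10th percentile. Alternatives used edgeR 4.0.16 and DESeq2 1.42.0 on recovered reads, other scalings, pseudocounts and filters, replicate blocks, a length and GC correction, and libraries left out. The fit was also tested on simulated data. GENCODE M21 gave gene positions and exon lengths, and RefSeq (GRCm38.p6) the promoter windows.

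Libraries of the same number share a homogenate between IP and input, per the study's methods. Deviations from group means correlated between same-numbered libraries of each pair of groups (lowest r 0.288, means 0.357 to 0.407), so the numbers were taken to pair the samples. The means between other libraries (-0.135 to -0.119) are negative because the group means were subtracted, and are no separate evidence. Of the control IP libraries, 3 of 4 correlated best with the control input library of the same number. In the other pairs of groups 4 of 4 did. Each replicate was a separate pool. Named genes were the 10 subunit genes, each tested family gene, regulators and calcium handling genes that met the stricter criteria between IP groups (at most 3 per list), and the 3 most similar genes of each member that met those criteria in a comparison. Members and lists were chosen with earlier results of these data known. Every group and comparison came from the sample labels.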

Additional observations from a re-analysis of the deposited data

Results flagged for a closer look

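In 3 of the 40 groups of 4 libraries examined (10 genes in 4 groups), 1 library stood far from the other 3, where chance gives about 1 in 20. The gap to the nearest library, as a share of the group's range, was 0.88 for Cacna1d in DTR input replicate 4 (37.8 CPM against 18.9 to 21.2 CPM in the others). The summed level of the 12 hair cell markers was 831.5 CPM in that library and 681.7 to 708.9 CPM in the other DTR input libraries, and its part in the value of Cacna1d was not tested. The share was 0.914 for Cacna1h in control input replicate 3 (14.7 CPM against 9.66 to 10.1 CPM) and 0.876 for Cacnb3 in DTR input replicate 3 (119.1 CPM against 142.2 to 145.4 CPM). Without the respective library the call of Cacna1h in control IP against control input held, and that of Cacnb3 in DTR IP against DTR input was lost (adjusted p = 0.075, limma).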

How the results depend on the processing

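The number of the 10 genes passing (limma) was 3 in control IP against control input, 2 in DTR IP against DTR input, 4 in DTR IP against control IP, 1 in DTR input against control input and 0 in the difference between the changes. With single libraries left out these ranged from 3 to 4, from 1 to 2, from 2 to 4, from 1 to 2 and from 0 to 0. The low values came without control IP replicate 1 (2 in DTR IP against control IP) and without DTR IP replicate 1 or DTR input replicate 3 (1 in DTR IP against DTR input), and 2 passed in DTR input against control input without DTR input replicate 4. With the replicate block the counts were 4, 3, 4, 1 and 0, and the block ended no call. Over all 16994 genes the calls went from 6787, 6656, 2674, 2104 and 2 to 8299, 8183, 3956, 3016 and 40 with the block. DTR IP against DTR input gave 1 with median-centred libraries and 1 over the groups compared alone, and DTR IP against control IP gave 2 over the groups compared alone. With the replicate block and the length and GC correction together, 5 passed in control IP against control input, 4 in the same comparison of DTR cochleae and 2 in DTR input against control input. Replicates 3 and 4 alone, chosen after seeing the data, gave 1, 0 and 1 in the first 3 comparisons, with fewer libraries. Of 1485 single-gene values under the alternatives, 1443 kept their side of the threshold, 25 lost and 17 gained the call, and no value that passed changed sign. Cacna1c passed after damage under each alternative, with an LFC of 1.61 to 2.17 in IP and 2.20 to 2.54 in input. The cause of the other changes was not tested. Cacna1b could not be followed at a minimum of 2 CPM. Depth limits Cacna1b most, at 21 to 82 reads per library.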
